A study of Mus musculus with 19 samples.

Results

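The surface receptors with which natural killer (NK) cells sense healthy, infected or stressed cells were followed in blood leukocyte RNA of B6 and DBA/2 mice after injection of CAWS, a mannoprotein and glucan fraction of Candida albicans that causes vasculitis of the coronary arteries and aorta. The receptors were taken by gene name. They were 6 Ly49 genes (Klra1, Klra3, Klra4, Klra7, Klra8 and Klra9), the CD94/NKG2 genes Klrc1 and Klrd1, the NKG2D gene Klrk1 and the NKp46 gene Ncr1. Of these 10 genes, 8 had a probe on the array, with 11 probes among 41174 non-control probes, which carry 27745 names of genes or transcripts. All 11 passed the filter on dim probes, as did 22939 probes of the whole array. No probe carried the name Klra1 or Klra4. Their transcripts were listed beside others on probes named for further Ly49 genes, so no level is given for either.

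Male mice of both strains had received CAWS intraperitoneally on 5 consecutive days, and 0 w was the time right after the last injection. The 0 w animals had thus been given CAWS too, and a group without CAWS was not analysed here. RNA was taken from mice that were alive at 0, 2, 4, 8 and 9 w, and each sample was hybridised to a single-colour Agilent array. There were 8 B6 samples, 2 each at 0, 4 and 8 w and 1 each at 2 w and 9 w, and 10 DBA/2 samples, 2 at each week. One B6 0 w sample had been run on 2 arrays, which were averaged. The labels call the samples of a group biological replicates but do not say which mice they came from, nor each mouse's age, so p-values measure the spread between these samples. The later weeks hold surviving mice only.

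Ly49 receptors are lectin-like dimers on NK cells that bind MHC class I. Most are inhibitory and stop the NK cell from killing a cell with normal class I, while a few, such as Ly49D and Ly49H, are activating and signal through DAP12, the product of Tyrobp. NKG2A pairs with CD94 and reads the non-classical class I molecule Qa-1, NKG2D recognises stress-induced ligands, and NKp46 is an activating receptor that marks NK cells. All of these genes but Ncr1 lie in the NK gene complex, whose Ly49 content differs between inbred strains.

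A short stretch of the promoter was nearly the same in some Ly49 genes and not in others. From RefSeq (GRCm38.p6), 50 bases upstream of the start site are given for the 5 Ly49 genes among the 10 receptors whose promoter holds TTTCCTC, all on the minus strand, with that motif in capitals. The windows are aligned on the motif, so its bases match by construction. They begin at different distances before the start site: 50 bases for Klra3, 69 for Klra9, 120 for Klra7, 111 for Klra8 and 110 for Klra4. The rest of the promoters was not compared.

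Klra3 (chr6:130337627-130337676): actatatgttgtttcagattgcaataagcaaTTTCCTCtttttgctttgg
Klra9 (chr6:130193132-130193181): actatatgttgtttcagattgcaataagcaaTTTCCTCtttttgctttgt
Klra7 (chr6:130233393-130233442): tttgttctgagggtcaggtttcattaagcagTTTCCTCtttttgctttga
Klra8 (chr6:130129960-130130009): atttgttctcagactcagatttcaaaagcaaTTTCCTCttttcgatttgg
Klra4 (chr6:130067332-130067381): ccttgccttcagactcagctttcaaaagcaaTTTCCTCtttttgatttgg

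Klra3 and Klra9, which encode Ly49C and Ly49I, matched at 49 of these 50 positions. The activating pair Klra8 and Klra4 matched at 43. Klra3 and Klra7 matched at 35, and the remaining pairs other than Klra7 and Klra9 (also 35) at 28 or 29. TTTCCTC, searched on both strands, lay in the 250 bases before the start of 9 of 11 Klra genes in the table and of 7.61% of 32851 promoters. For Klrk1 and Ncr1, whose transcripts moved most clearly with the weeks, the 60 bases around TGTGGT are shown, again with the motif in capitals.

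Klrk1 (chr6:129623961-129624020, minus strand): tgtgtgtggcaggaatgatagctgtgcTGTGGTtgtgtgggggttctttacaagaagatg
Ncr1 (chr7:4337512-4337571, plus strand): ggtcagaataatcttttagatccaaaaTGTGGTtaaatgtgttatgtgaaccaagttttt

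TGTGGT was found on either strand in 14% of all promoters and, among the 9 receptor genes with an entry, in Klra1, Klrc1, Klrk1 and Ncr1, none of which held TTTCCTC. These matches describe the sequence only.

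Values below are scaled signals, that is, processed intensities scaled so that the 75th percentile of every array was 374, and they compare samples at 1 probe, never one probe with another. Changes are log2 differences with their standard error (SE), tested in limma over all probes that passed the filter, with Benjamini-Hochberg adjusted p under 0.05 as the threshold. A probe counts as detected where the scanner software marked it well above background. In RNA of all blood leukocytes, fewer NK cells and less RNA per NK cell cannot be told apart.

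Between 33.9% and 51.4% of spots were well above background on the 19 arrays. The B6 samples at 0 w and 8 w stood apart by transcripts of liver: the summed signal of 7 hepatocyte markers was 16311 to 16770 at 0 w and 8450 to 8934 at 8 w, against 184 to 551 in every other group. Since B6 0 w is the baseline of the B6 changes, the step from 2 w to 4 w, which uses none of those samples, is given beside them. Of 6 slides 4 held one strain alone, and no slide held both strains at the same week.

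B6 and DBA/2 leukocytes differed in the level of most of these receptors at every week. Klra7 (Ly49G2), Klra8 (Ly49H), Klra9 (Ly49I) and Klrk1 (NKG2D) were higher in B6 and Ncr1 (NKp46) was higher in DBA/2, in each case with no overlap between the 8 B6 and the 10 DBA/2 samples. Of the 11 probes, 6 differed between the strains over the 5 weeks, 4 lower and 2 higher in DBA/2, with a median difference of -0.63. Differences of this kind were common, at 41.9% of all probes, with a median of 0.01.

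**Figure D1:**
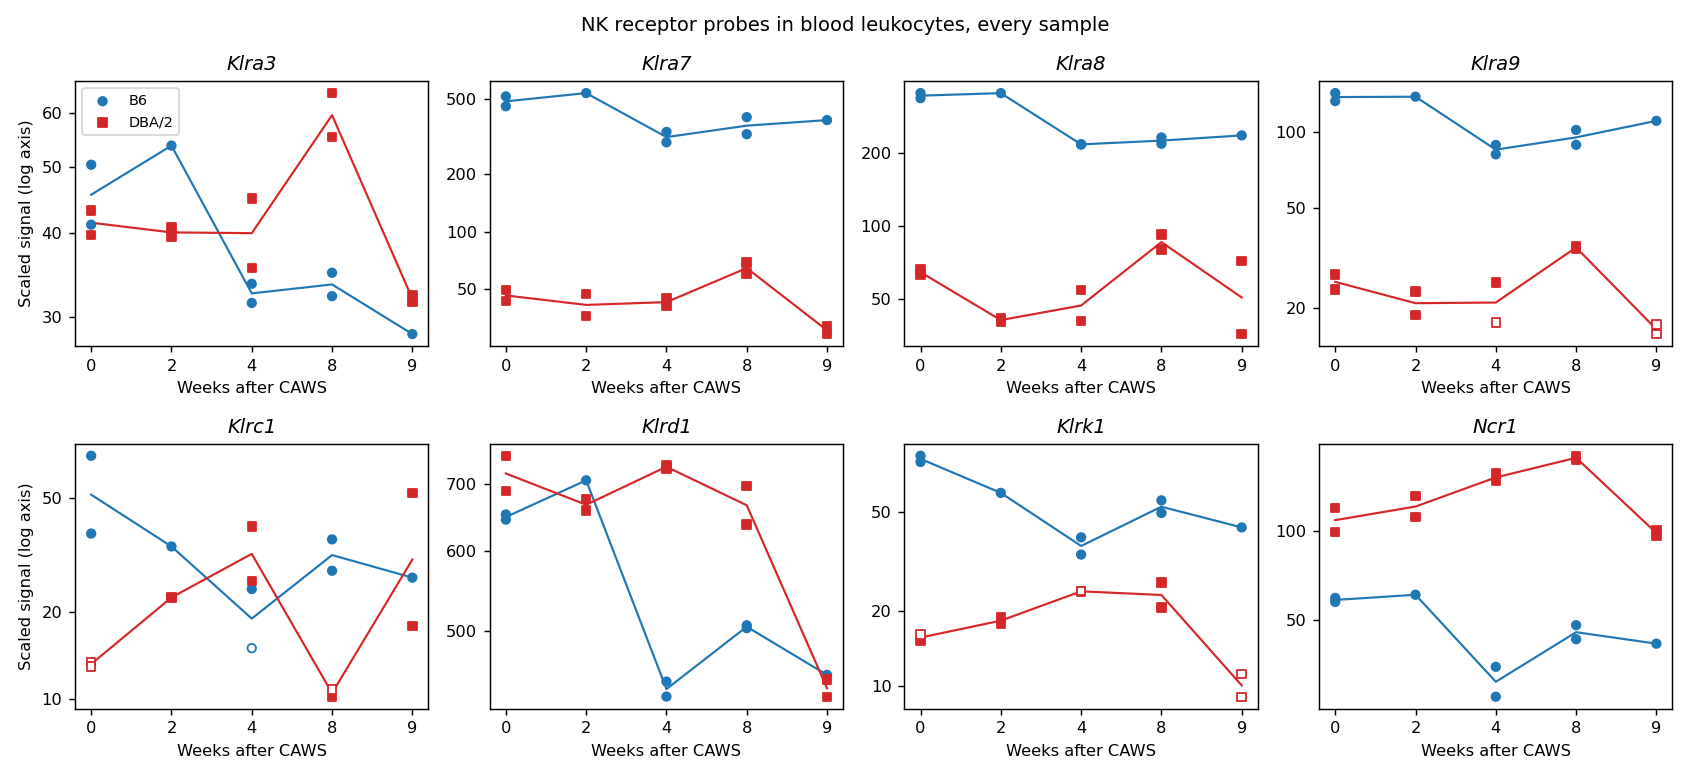
Scaled signal (log axis) of the main probe of the 8 receptor genes against weeks after CAWS, with 1 point per sample, circles for B6, squares for DBA/2, open symbols where the probe was not well above background and lines through the group means. Klra7, Klra8, Klra9 and Klrk1 lie higher in B6 at every week, Ncr1 lies higher in DBA/2, and the other 3 genes overlap.

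Klra7 encodes Ly49G2, an inhibitory receptor. Its probe (mm8 chr6:130184472-130184625) gave 513 and 456 in B6 at 0 w, 535 at 2 w, 334 and 295 at 4 w, 399 and 325 at 8 w and 386 at 9 w. In DBA/2 it gave 49.4 and 43.2 at 0 w, 47.1 and 35.98 at 2 w, 44.7 and 40.5 at 4 w, 68.8 and 60.05 at 8 w, and 31.7 and 28.9 at 9 w. The lowest B6 sample was thus far above the highest DBA/2 sample. DBA/2 was 9.35-fold lower over the 5 weeks (log2 difference -3.23, 95% interval -3.40 to -3.05, limma adjusted p = 2.05e-09). The samples of replicate 1 and of replicate 2 were scanned on different days. They gave -3.08 over 0, 2, 4 and 8 w and -3.11 over 0, 4, 8 and 9 w, the weeks with both strains.

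Klra8 encodes Ly49H, an activating receptor for a protein of murine cytomegalovirus that B6 mice carry and DBA/2 mice are known to lack. The Klra8 probe (mm8 chr6:130087838-130090769) gave 351 and 335 in B6 at 0 w, 351 at 2 w, 216 and 217 at 4 w, 217 and 231 at 8 w and 235 at 9 w. DBA/2 samples were lower but remained above background in all 10, with 65.9 and 62.8 at 0 w, 41.7 and 40.1 at 2 w, 54.4 and 40.5 at 4 w, 79.6 and 92.0 at 8 w, and 35.8 and 71.7 at 9 w. The strain difference was -2.26 (95% interval -2.56 to -1.97, limma adjusted p = 5.66e-07), or 4.80-fold. What the probe reads in a strain without the gene, whether related Ly49 transcripts or unspecific signal, was not tested.

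The Klra9 probe (mm8 chr6:130151228-130151287), which also lists a transcript of Klra21, gave 132 and 142 in B6 at 0 w, 138 at 2 w, 81.4 and 88.6 at 4 w, 102 and 88.7 at 8 w, and 110.4 at 9 w. DBA/2 samples lay between 15.8 and 35.3 with a median of 23.5, and 7 of 10 were above background. DBA/2 was at least 4.82-fold lower (log2 difference -2.27, 95% interval -2.46 to -2.08, limma adjusted p = 2.96e-08). The bound is used because neither DBA/2 sample at 9 w was above background.

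Klra3 (Ly49C), an inhibitory receptor, was close in the strains. Its brightest probe (mm8 chr6:130299033-130299953) ran from 28.3 to 53.8 in B6, with a median of 34.3, and from 31.6 to 64.3 in DBA/2, with a median of 40.2. The strain difference was 0.15 (95% interval -0.01 to 0.30, limma adjusted p = 0.112). A second probe (mm8 chr6:130289174-130289233) gave -0.03 and probe 3, which also lists transcripts of Klra10, Klra9 and Klra6 (mm8 chr6:130298962-130299021), gave -0.67, neither past the threshold.

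The strains differ in sequence as well as in gene content across the Ly49 cluster. A lower signal in one strain cannot be told apart here from a base difference under the probe, which holds for every strain difference in level. A change within a strain compares samples of the same sequence. Which transcripts a probe reads in each strain, and whether a base difference alters the size of a change, was not tested.

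Klrd1 encodes CD94, the partner of NKG2A. At its probe (mm8 chr6:129564066-129564125) B6 gave 653 and 645 at 0 w, 706 at 2 w, 446 and 431 at 4 w, 507 and 504 at 8 w, and 453 at 9 w. DBA/2 gave 746 and 688 at 0 w, 676 and 659 at 2 w, 731 and 725 at 4 w, 697 and 638 at 8 w, and 448 and 431 at 9 w. DBA/2 was only slightly higher over the 5 weeks (0.23, 95% interval 0.15 to 0.31, limma adjusted p = 0.00072), and by week the difference was 0.14, -0.08, 0.73, 0.40 and -0.04 at 0, 2, 4, 8 and 9 w. The substrain DBA/2J is known to carry a deletion in Klrd1, whereas the labels name the strain DBA/2 alone. This probe was well above background in all 10 DBA/2 samples.

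Klrc1 encodes NKG2A. Its probe (mm8 chr6:129641066-129642871) was dim and scattered, with 69.8 and 37.5 in B6 at 0 w, 33.9 at 2 w, 15.0 (not above background) and 24.1 at 4 w, 27.9 and 35.8 at 8 w, and 26.4 at 9 w. In DBA/2 both 0 w samples (13.5 and 13.01) were not above background, and the later samples were 22.5 and 22.6 at 2 w, 25.7 and 39.7 at 4 w, 10.2 and 10.8 at 8 w, and 51.8 and 17.96 at 9 w. The strains overlapped. The difference over the 5 weeks, at least 1.53-fold lower in DBA/2 (log2 difference -0.63, SE 0.23), did not pass the threshold (limma adjusted p = 0.0526). By week it turned sign, from -1.95 at 0 w and -0.59 at 2 w to 0.74 at 4 w, -1.59 at 8 w and 0.21 at 9 w.

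Klrk1 encodes NKG2D. B6 gave 84.0 and 79.3 at 0 w on its brighter probe (mm8 chr6:129578157-129578446), 59.6 at 2 w, 39.5 and 33.7 at 4 w, 49.5 and 55.6 at 8 w, and 43.3 at 9 w. DBA/2 gave 15.2 and 16.1 at 0 w, 17.8 and 18.8 at 2 w, 23.9 and 24.0 at 4 w, 26.0 and 20.6 at 8 w, and 9.04 and 11.1 at 9 w. Of these DBA/2 samples 6 of 10 were above background, with 1 of 2 at 0 w, 1 of 2 at 4 w and none at 9 w. Every B6 sample exceeded every DBA/2 sample, and DBA/2 was at least 2.80-fold lower (log2 difference -1.60, 95% interval -1.75 to -1.44, limma adjusted p = 8.68e-08). The second Klrk1 probe (mm8 chr6:129577539-129577598), above background in 8 of 18 samples, gave -0.60 (adjusted p = 0.0947). With another background correction, normexp, the brighter probe gave -0.59 (adjusted p = 0.182), while the other 5 strain calls held.

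Ncr1 (NKp46) ran the other way. At its probe (mm8 chr7:3947661-3947720) B6 gave 59.3 and 57.5 at 0 w, 60.8 at 2 w, 27.4 and 34.7 at 4 w, 47.9 and 43.0 at 8 w, and 41.5 at 9 w. DBA/2 gave 119.6 and 99.0 at 0 w, 131 and 111 at 2 w, 156 and 147 at 4 w, 174 and 179.7 at 8 w, and 100.2 and 96.6 at 9 w. DBA/2 was 2.79-fold higher over the 5 weeks (log2 difference 1.48, 95% interval 1.33 to 1.63, limma adjusted p = 1.17e-07), and by week the difference was 0.90, 0.99, 2.30, 1.96 and 1.25 at 0, 2, 4, 8 and 9 w. The difference was largest at 4 w, when the B6 signal was lowest.

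**Figure D2:**
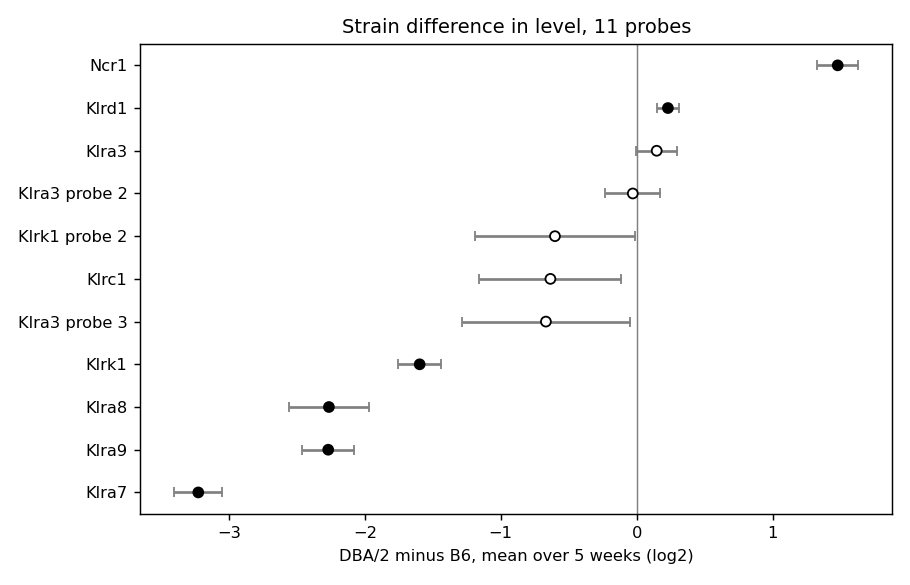
Difference in level between the strains (DBA/2 minus B6, mean over the 5 weeks, log2) for the 11 probes, with bars for the 95% interval and filled points for adjusted p under 0.05. Klra7 is lowest at -3.23, and Ncr1 at 1.48 and Klrd1 at 0.23 are the filled points above 0.

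The second question was whether the receptors changed with the weeks, which a constant strain difference leaves untouched. In B6, all 11 probes were lower at 4 w and 8 w together than at 0 w, and 6 passed the threshold, against 15% of all probes. The fallen genes were Klra3, Klra7, Klra9, Klrd1, Klrk1 and Ncr1, and the median of the 11 differences was -0.64, beside -0.08 over all probes.

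Klrk1 fell most among those 6, by 0.90 (SE 0.12, limma adjusted p = 0.0011), and all 4 samples at 4 w and 8 w lay below both 0 w samples. Ncr1 fell by 0.64 (SE 0.12, adjusted p = 0.00594) and Klrd1 by 0.46 (SE 0.07, adjusted p = 0.00133). Among the Ly49 genes, Klra9 fell by 0.61 (SE 0.15, adjusted p = 0.0238), Klra7 by 0.52 (SE 0.14, adjusted p = 0.0326) and Klra3 by 0.46 (SE 0.12, adjusted p = 0.0296). For these genes too the 0 w samples did not overlap those at 4 w and 8 w. Klra3, Klra7, Klra9 and Ncr1 lost the call without B6 0 w replicate 1, at -0.32, -0.44, -0.66 and -0.62. The Ly49 genes among them also lost it without some other B6 samples. Klra8 at -0.64 (95% interval -1.16 to -0.13) and Klrc1 at -1.06 (95% interval -1.98 to -0.14) did not pass (adjusted p = 0.0982 and 0.123). Nor did Klra3 probe 2 (-0.43), or Klra3 probe 3 and the second Klrk1 probe, at least 1.87-fold and 1.63-fold lower, where B6 4 w was nowhere above background. For Klra8 and Klrc1 too the 0 w samples did not overlap those at 4 w and 8 w. Both passed at the same values with 1 DBA/2 9 w sample left out, either one. Those samples enter this comparison only through the shared spread.

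Between 2 w and 4 w, without the samples that held liver transcripts, B6 differences were -0.71 for Klrk1, -0.98 for Ncr1, -0.69 for Klrd1, -0.77 for Klra7 and -0.73 for Klra3, each with an adjusted p under 0.05, and -0.70 for Klra9 (adjusted p = 0.0553). The lone 2 w sample is taken to vary as the other groups do in that comparison. On the slide that held B6 0 w and 4 w of replicate 1, the 4 w sample was lower by -1.09 for Klrk1, -1.11 for Ncr1 and -0.55 for Klrd1. On the slide of replicate 2 the mean of 4 w and 8 w was lower by -0.77, -0.33 and -0.45. These falls are relative to the scaling: leaving it out raises every probe by the same 0.53, the median over all probes then lies at 0.45, and Klra3 (0.066), Klra7 (0.0035) and Klrd1 (0.065) lie above 0 but below that median, with no receptor probe past the threshold.

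In DBA/2 the same comparison showed rises in Klrk1 and Ncr1. These 2 of 11 probes passed the threshold, which is no larger a share than the 22.9% of all probes in either direction (9.8% were higher). The median of the 11 was 0.24, beside -0.14 over all probes. At Klrk1, 1 of 2 samples was above background at 0 w and 1 of 2 at 4 w. Klrk1 rose by 0.59 (SE 0.12, limma adjusted p = 0.00717) and Ncr1 by 0.59 (SE 0.12, adjusted p = 0.00621), with all 4 later samples above both 0 w samples in each case. On the slides of replicates 1 and 2 the rise was 0.72 and 0.47 for Klrk1, and 0.46 and 0.72 for Ncr1. Both rested on the baseline samples: Klrk1 was at 0.55 (adjusted p = 0.0649) without DBA/2 0 w replicate 1, and Ncr1 at 0.45 (adjusted p = 0.0767) without replicate 2.

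No Ly49 probe passed in DBA/2, and the lowest unadjusted p among them was 0.0765, for Klra3. Klra3 was at 0.24 (95% interval -0.03 to 0.51), Klra7 at 0.18 (-0.13 to 0.49), Klra8 at -0.02 (-0.54 to 0.49) and Klra9 at 0.09 (-0.25 to 0.43). What the Klra8 probe reads in DBA/2 was not tested. Klrd1 was at -0.04, with an interval of -0.19 to 0.11. Klrc1, at least 1.30-fold higher from a baseline below background, had an adjusted p of 0.496.

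**Figure D3:**
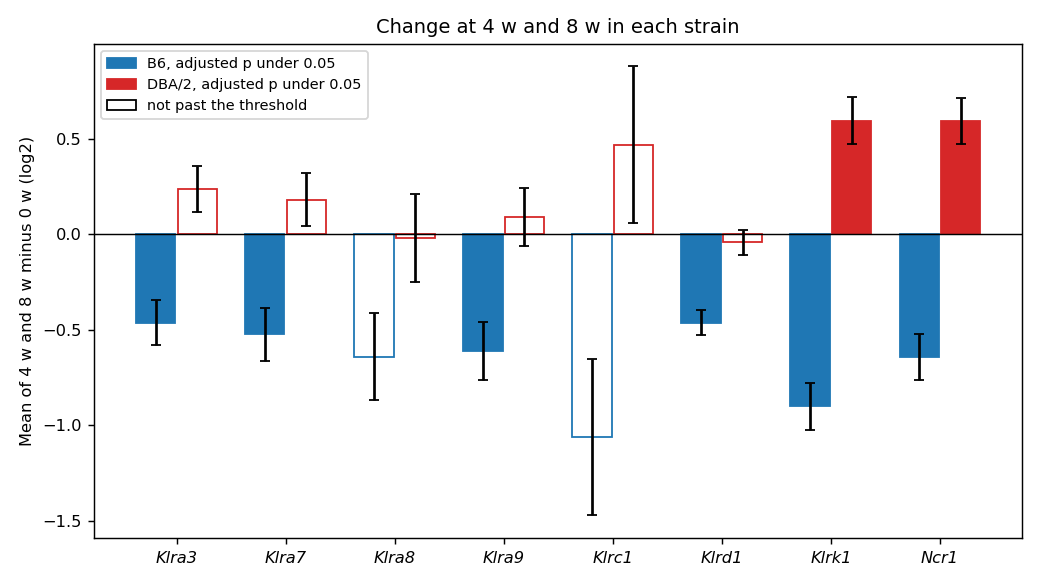
Change from 0 w to the mean of 4 w and 8 w (log2, bars with SE) of the main probe of each gene in B6 (blue) and DBA/2 (red), filled where adjusted p was under 0.05. The B6 bars are all below 0, and Klrk1 and Ncr1 rose by 0.59 in DBA/2.

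The changes themselves differed between the strains at 6 of 11 probes, all more positive in DBA/2, against 13.2% of all probes, with a median of 0.70 beside -0.04. The DBA/2 change exceeded the B6 change by 1.49 for Klrk1 (SE 0.17, limma adjusted p = 0.000584), 1.23 for Ncr1 (SE 0.17, adjusted p = 0.00142), 0.70 for Klra3 (SE 0.17, adjusted p = 0.0252), 0.70 for Klra7 (SE 0.20, adjusted p = 0.0447) and 0.42 for Klrd1 (SE 0.09, adjusted p = 0.0164). The second Klrk1 probe gave 2.31 (adjusted p = 0.0474), where neither B6 4 w nor DBA/2 0 w was above background. Over 33 alternative settings it ran from 0.66 to 2.84 and lost the call in 19. Klra9 (0.70, adjusted p = 0.061), Klra8 (0.62, adjusted p = 0.276) and Klrc1 (1.53, adjusted p = 0.126) did not pass. With 1 DBA/2 9 w sample left out, either one, Klra8 and Klrc1 passed at the same values. Klra9 passed without DBA/2 4 w replicate 2 (0.83). The value for Klra8 holds a DBA/2 signal whose source was not tested.

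Klrk1 and Ncr1 kept this call with any single sample left out, and Ncr1 with either array of the B6 0 w sample run on 2 arrays (1.36 and 1.11), which differed by -0.50 at its probe. No receptor probe passed under normexp, in either strain or for the difference, where Klrk1 gave 0.75 and Ncr1 0.88 and 0.392% of all probes passed for the difference. Klrd1 did not pass without B6 0 w replicate 1, B6 0 w replicate 2 or DBA/2 0 w replicate 2 (0.41, 0.43 and 0.36, adjusted p = 0.066, 0.0549 and 0.0764), and it lay at -0.18 without scaling, which lowers every probe by 0.60. Klra3 lost the call in 5 of the 18 omissions, at values of 0.55 to 0.76, and Klra7 in 13 of 18, at values of 0.61 to 0.80. From 2 w to 4 w alone, the DBA/2 change exceeded the B6 change by 1.10 for Klrk1 (adjusted p = 0.00808), 1.31 for Ncr1 (adjusted p = 0.00283) and 0.81 for Klrd1 (adjusted p = 0.00141).

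Week by week, B6 probes passed from 4 w onward. In B6 at 2 w, with 1 sample, 0 of 11 probes passed in limma, 1 had an unadjusted p under 0.05 (Klrk1, -0.45), and 13% of all probes passed. At 4 w, 7 probes were lower, against 9.66% of all probes lower and 15.7% in either direction. The 7 were Klrk1 (-1.16) and its second probe (at least 1.96-fold lower), Ncr1 (-0.92), Klra9 (-0.69), Klra7 (-0.62), Klrd1 (-0.57) and Klra3 (-0.48). At 8 w 3 were lower, namely Klrk1 (-0.64), Klra3 (-0.44) and Klrd1 (-0.36), against 10.2% of all probes lower and 21.2% in either direction. All 3 lie above 0 without scaling, which adds 1.02 to every probe. At 9 w Klrk1 (-0.92), Klra3 (-0.68) and Klrd1 (-0.52) passed, against 9.34% of all probes, with a single sample taken to vary as the other groups do.

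In DBA/2 at 2 w the 1 probe that passed, against 15.7% of all, was the second Klra3 probe (-0.72). Klrk1 (0.62) and Ncr1 (0.48) were higher at 4 w, when 14.8% of all probes passed. At 8 w Ncr1 (0.70), Klrk1 (0.57) and Klra3 (0.53) were higher, against 10% of all probes higher and 24% in either direction.

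At 9 w part of the DBA/2 receptors went the other way. Of the 11 probes 5 were lower past the threshold and none higher, against 14.3% of all probes lower and 27.7% in either direction. Klrd1 fell by 0.71 (SE 0.08, limma adjusted p = 0.000162), to 448 and 431 from 746 and 688, with no overlap between the weeks. Klra7 was lower by 0.61 (adjusted p = 0.0199), Klra9 at least 1.54-fold (adjusted p = 0.0249), Klrk1 at least 1.06-fold (adjusted p = 0.00867) and the second Klra3 probe at least 1.47-fold (adjusted p = 0.00808), but these 4 turned positive under normexp. Klrd1 stayed at -0.70 there (adjusted p = 0.00622). Both DBA/2 9 w arrays lay on slides without DBA/2 0 w, and with the slide as a random block Klrd1 gave -0.71 (adjusted p = 0.00012) and Klra9 -0.58 (adjusted p = 0.0866). Ncr1 was at -0.14, close to its 0 w level. Klrc1, at least 2.16-fold higher than at 0 w, did not pass. Nor did the second Klrk1 probe, at a fitted 0.78 with neither 0 w nor 9 w above background.

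**Figure D4:**
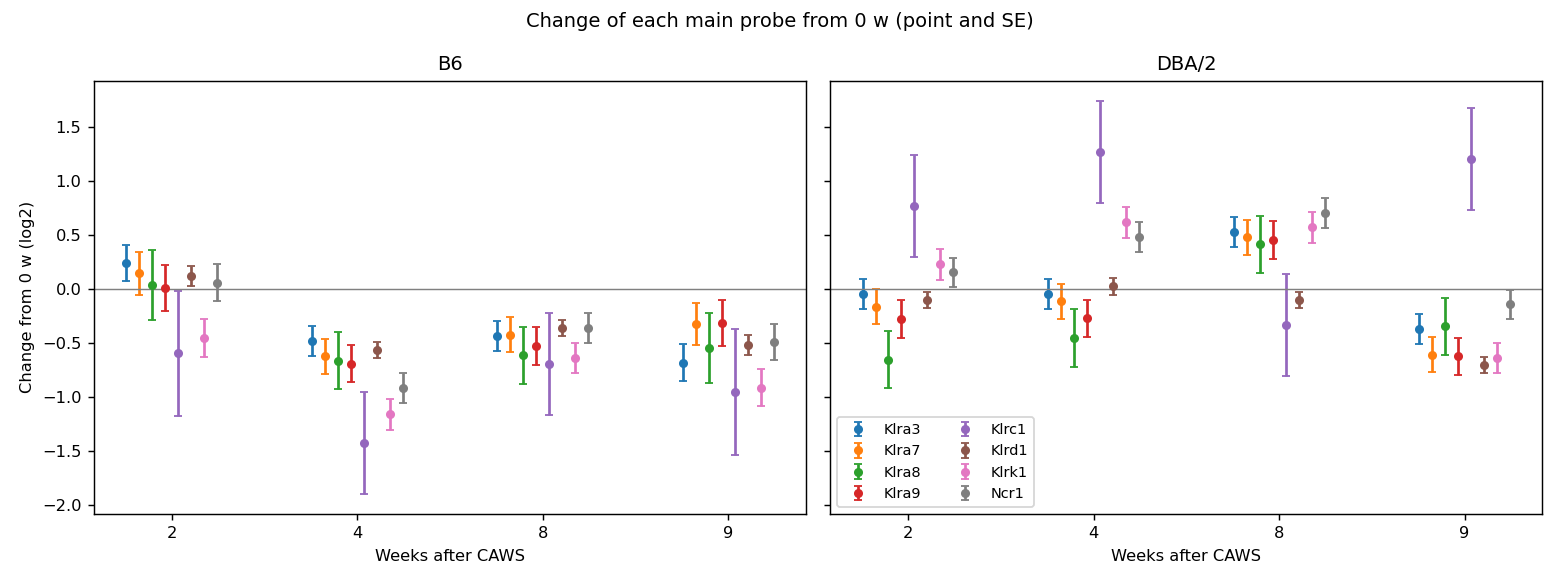
Change of the main probe of each gene from 0 w (log2, points with SE) at 2, 4, 8 and 9 w in B6 (left) and DBA/2 (right). In B6 the points at 4 w lie below 0, with Klrk1 at -1.16, and in DBA/2 Klrk1 is at 0.57 at 8 w and Klrd1 at -0.71 at 9 w.

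After subtraction of each strain's mean, the receptors ran broadly together over the 18 samples. Pearson r over the 28 pairs of main probes had a median of 0.72, reached 0.87 for Klra3 with Klra7, and was over 0.5 in 19 pairs. The 4 pairs below 0 all included Klrc1, the lowest being Klra8 with Klrc1 at -0.39. These correlations share the arrays and their scaling and are a description.

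Among 12844 other genes, the pattern of Ncr1 was most like that of AW112010 (r = 0.95), Thyn1 (0.93), Nkg7 (0.93), Ccl5 (0.93) and Gzmb (0.92). For Klrk1 the most alike were Klrb1c (0.93), Btbd9 (0.88), Tmed5 (0.87), Nkg7 (0.85) and Ccl5 (0.85). Nkg7 encodes a granule membrane protein, Ccl5 a chemokine and Gzmb the protease granzyme B of cytotoxic lymphocytes, and Klrb1c is the NK1.1 antigen, used to stain NK cells of B6 mice.

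Of all probes tested, 7.28% were higher and 7.73% lower in B6 at 4 w and 8 w, 9.8% and 13.1% in DBA/2, and 6.48% and 6.73% for the difference of the changes, against which the following lists are to be read. The other lectin genes of the NK complex were mostly lower in DBA/2. Of 34 listed, 27 were tested, and 16 were lower and 5 higher in DBA/2 over the weeks (median -0.81; all probes 20.8% and 21%), with Klra6 (-4.001), Klra22 (-3.87) and Klra10 (-3.67) lowest and Klra17 (3.34) highest. At 4 w and 8 w, 10 fell and 2 rose in B6 (median -0.64), Klrc3 by -1.33 and Klrc2 (NKG2C) by -0.86. In DBA/2, 1 fell (Clec2i, -0.57) and 5 rose (median 0.09), Klra17 by 2.45 and Klrg1 by 0.94. Which cells these transcripts came from was not tested. Neutrophil markers rose by a median of 2.44 in the same DBA/2 comparison. The change was more positive in DBA/2 for 9 of 27 and for none more negative, with Klrc3 (1.76), Klrg1 (1.52), Klrc2 (1.35) and Klrb1c (1.13) in front.

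Of 21 adaptors and signalling genes tested, 7 rose and 1 fell in DBA/2, and 3 rose and 3 fell in B6. Tyrobp, the adaptor of activating Ly49 receptors, rose by 1.59 in DBA/2 and 0.80 in B6, and Fcer1g, an adaptor of NKp46 and Fc receptors, by 1.18 and 0.70. Both adaptors are also abundant in neutrophils and monocytes. Zap70, a kinase of T and NK cells, fell by 1.03 in B6. Of 14 ligand genes 7 had a probe and 4 were tested, and all 4 rose in DBA/2: B2m by 0.90, H2-D1 by 0.90, H2-T23 (Qa-1, the ligand of CD94/NKG2A) by 0.73 and H2-K1 by 0.46. In B6 B2m rose by 0.47 and the other 3 did not pass.

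Other genes of NK cells mostly fell in B6 and rose in DBA/2 at 4 w and 8 w. Of 19 tested, 13 fell and 1 rose in B6 (median -0.64), led by Il2rb (-1.18), Prf1 (-1.04), Xcl1 (-0.997) and Fasl (-0.92). In DBA/2 10 rose and 2 fell (median 0.54), led by Xcl1 (1.34), Cd244 (1.19), Gzmb (1.12) and Fasl (0.94). The strain difference in change passed for 15, 14 of them more positive in DBA/2. Several of these genes, Gzmb and Prf1 among them, are used by cytotoxic T cells as well.

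**Figure D5:**
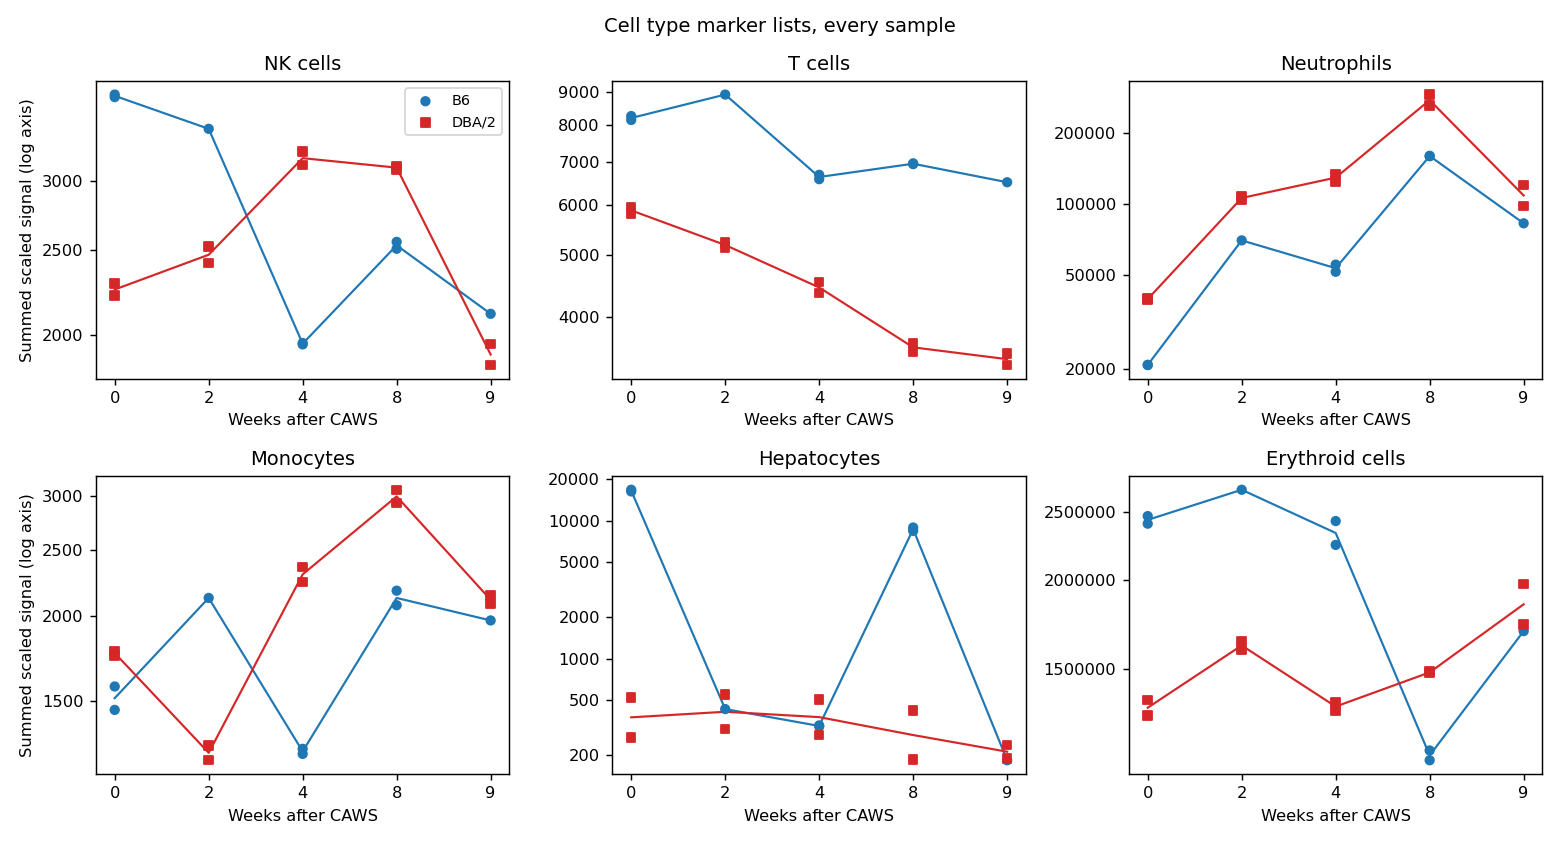
Summed scaled signal (log axis) of 6 cell type marker lists against weeks after CAWS, with 1 point per sample, circles for B6, squares for DBA/2 and lines through the group means. NK markers run from 3742 to 3767 in B6 at 0 w down to 1952 to 1959 at 4 w and in DBA/2 from 2219 to 2292 up to 3131 to 3242, while neutrophil markers rise in both strains.

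The summed signal of 8 NK markers, which include Ncr1 and Klrd1, was 3742 to 3767 in B6 at 0 w, 3442 at 2 w, 1952 to 1959 at 4 w, 2510 to 2556 at 8 w and 2115 at 9 w. In DBA/2 it was 2219 to 2292 at 0 w, 2417 to 2527 at 2 w, 3131 to 3242 at 4 w, 3093 to 3122 at 8 w and 1848 to 1954 at 9 w. At 4 w and 8 w, 7 of 8 fell in B6 and 6 of 8 rose in DBA/2. The markers other than Ncr1 and Klrd1 are in the lectin and NK cell lists above, so these counts repeat the same genes.

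Other cell types moved as well. All 7 neutrophil markers rose in both strains, with sums from 20684 to 20736 at 0 w to 158643 to 159386 at 8 w in B6 and from 39179 to 39574 to 259760 to 289679 in DBA/2. T cell markers fell at 4 of 10 in B6 and 8 of 10 in DBA/2, and B cell markers fell at 4 of 6 in DBA/2, with adjusted p of 0.0878 to 0.773 in B6. Monocyte markers rose at 2 of 6 and 4 of 6, hepatocyte markers fell at 7 of 7 in B6 while 1 of 7 fell and 1 rose in DBA/2, and erythroid markers fell at 3 of 5 in B6 while 1 of 5 rose in DBA/2. The part of these shifts in the receptor changes was not tested.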

How the data were processed

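Blood leukocyte RNA was labelled with Cy3 and hybridised to single-colour Agilent mouse arrays, 19 arrays of 18 samples. The authors deposited scanner output of Agilent Feature Extraction (version 9.5.3.1, per the submitters' processing notes), with a processed intensity per spot, background-corrected by that software but not normalized between arrays, and a table of the same intensities. Groups came from the sample titles.

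Spots marked as outliers were left out, spots of one probe averaged, log2 taken and the 75th percentile of each array subtracted, taken over 11536 probes detected above background throughout. Probes well above background in at least 2 samples were kept. limma 3.58.1 in R 4.3.3 fitted 10 group means (8 residual degrees of freedom), and Benjamini-Hochberg adjustment ran over all tested probes. Where a group was nowhere above background, folds are bounds, set against the higher of the probe's own signal and the lowest signal well above background on each array. The number of arrays limits the precision.

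The members and gene lists were chosen with earlier results of these data known. All probes named for a member are described, the brightest as its main probe. Up to 4 called genes with the largest change are named from each list, and the 5 genes most like Ncr1 and Klrk1. Coordinates of probes are mm8, as in the files. Promoters are RefSeq, GRCm38.p6. Figures were drawn with matplotlib 3.10.9. The alternatives tried were other normalizations, background correction, filters, a floor, call rules, slide and replicate blocks, and leaving out samples.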

Additional observations from a re-analysis of the deposited data

Results flagged for a closer look

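At 6 probes the change from 0 w to the mean of 4 w and 8 w differed between the strains in limma's test of the difference itself. The DBA/2 change exceeded the B6 change, on the log2 scale, by 0.70 for Klra3, 0.70 for Klra7, 0.42 for Klrd1, 1.49 for Klrk1, 1.23 for Ncr1 and 2.31 for the second Klrk1 probe, where B6 4 w and DBA/2 0 w were nowhere above background, so that 2.31 is a difference of fitted values and no size can be given. At Klrk1 and Ncr1 all 4 later samples lay above the 0 w samples in DBA/2 and below them in B6. At Klra3, Klra7 and Klrd1 the later samples lay below 0 w in B6 and overlapped 0 w in DBA/2.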

How the results depend on the processing

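Of 11 probes, 6 were called for the strain difference in level, 2 for the DBA/2 change at 4 w and 8 w, 6 for the B6 change and 6 for the difference of the changes, and of 44 probe-by-week tests 11 in DBA/2 and 13 in B6. Without scaling between arrays, which put the median of all probes at 0.40, -0.22, 0.45 and -0.64 in the first 4, the B6 change had 0 calls and the difference 2. Of all probes, 40.9% and 40.1% then passed for these. Normexp gave 0 for the DBA/2 change, 0 for the B6 change, 0 for the difference, and 1 and 0 by week. Calls over all probes were few there too, at 2.55%, 0.78% and 0.392% for the changes and the difference. With no filter there were 3 for the B6 change, 2 for the difference, and 4 and 4 by week. Of all probes, 3.96% and 3.06% then passed for the B6 change and the difference. A 2-fold rule without a test gave 1 for the DBA/2 change, 2 for the B6 change, and 3 and 3 by week. The mean of a gene's probes gave 6 and 7 of 32 by week. The percentile over all probes and quantile normalization each gave 8 for B6 by week. When a 0 w sample was left out, fewer of all probes passed too, for its strain's change and for the difference. Leaving out 1 sample gave 6 to 8 for the level, 1 to 3 for the DBA/2 change, 2 to 8 for the B6 change, 2 to 6 for the difference, and 3 to 13 and 5 to 13 by week. The lowest counts came without B6 0 w replicate 1 (2 for the B6 change, 2 for the difference, 5 for B6 by week), without DBA/2 0 w replicate 1 (1 for the DBA/2 change, 3 by week) and without DBA/2 0 w replicate 2 (1, 2 for the difference and 4 by week). The difference had 3 calls without B6 4 w replicate 1 or B6 0 w replicate 2, and B6 by week 7 without either B6 4 w sample.

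With those constants (0.38 in level, 0.53 for the B6 change, -0.60 for the difference, 1.02 at B6 8 w) these values changed sign by construction: the second Klra3 probe in level (0.35), Klra3 (0.066), Klra7 (0.0035) and Klrd1 (0.065) for the B6 change, Klrd1 for the difference (-0.18), and at B6 8 w Klra3 (0.58), its second probe (0.75), Klra7 (0.60), Klra9 (0.49), Klrd1 (0.66), Klrk1 (0.38) and Ncr1 (0.66). Normexp did so at DBA/2 9 w for the second Klra3 probe (0.80), Klra7 (0.54), Klra9 (0.73) and Klrk1 (1.01), and the mean of a gene's probes for Klrk1 there (0.069). The cause of these 5 was not tested. The alternatives not named here moved no count of calls by over 1.5 times. Those chosen after seeing the data, without both DBA/2 9 w samples (7, 2 and 6 calls) and 4 w against 2 w (5 and 5), are among them. B6 2 w and 9 w, of 1 sample each, could not be left out for the level.

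Samples with the same replicate number deviated together by r = 0.02 to 0.41 over 28 group pairs, 14 of them over 0.1, so the numbers were not taken to pair the samples. The 6 pairs among DBA/2 0, 2, 4 and 8 w, whose same-numbered arrays share a slide, had r = 0.33 to 0.41. With the slide as a random block, calls were 6, 3, 8 and 7, and 14 and 17 by week. With the replicate block, calls were 8, 3, 7 and 6, and 13 and 15 by week. Signal over background limited Klrc1, Klra9 and Klrk1 in DBA/2.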
